A study of Mus musculus with 6 samples.

Results

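The interleukin 1 and IL-36 family was followed in cells of chemically induced mouse skin tumours through 10 genes chosen by name: Il1a, Il1b, Il1rn, Il1r1, Il18, Il33, Il1rl1, Il36a, Il36g and Il1rl2. Of these, 9 were measured, out of 18193 genes represented on the array. Il1rl1, which encodes the receptor of IL-33, had no probe set named for it in the annotation used and is not analysed here. The arrays' annotation lists Il36a as Il1f6 and Il36g as Il1f9, and each gene was read from its probe set with the highest mean.

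The tumours came from wild-type (WT) mice and from mice deficient in E-FABP (EKO), the epidermal fatty acid binding protein encoded by Fabp5, with 3 mice per group. Both groups had been treated for 5 months with DMBA, which mutates and so initiates epidermal cells, and with TPA, which activates protein kinase C and promotes outgrowth of the initiated cells. The labels give neither the strain, the age of the mice nor the cells in which E-FABP is absent. The tumours were digested to single cells, and RNA of each mouse's tumour cells went on an Affymetrix 3' array. The comparison of EKO with WT asks which transcripts differ when tumours arise without E-FABP, and the title of the study places SOX2 in keratinocytes at its centre.

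Cytokines of this family are alarm and inflammatory signals of the epidermis. IL-1α and IL-1β act on the receptor Il1r1 together with the shared coreceptor Il1rap, IL-36 cytokines act on Il1rl2 with the same coreceptor, IL-18 and IL-33 have receptors of their own, and all of them signal through Myd88 and IRAK kinases to NF-κB and MAP kinases. Il1rn and Il36rn encode antagonists that occupy a receptor without activating it. Keratinocytes hold IL-1α, IL-33 and IL-36 cytokines, whereas IL-1β comes largely from myeloid cells in many tissues and has to be cleaved, classically by caspase-1, before it is active.

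The labels call the cells keratinocytes, and the 11 measured keratinocyte markers were high in every tumour, with a mean log2 signal from 12.53 to 12.68 in WT and from 12.51 to 12.76 in EKO tumours. Markers of other cells were read as well. The lower quartile of all probe sets lay at 3.9 to 3.97 in the arrays. Eosinophil markers lay near it by their means, with Siglecf and Il5ra below it in every array. Xcr1, Mcpt1 and Ncr1 of other lists were also below it in every array. The 13 macrophage and monocyte markers had means from 7.65 to 8.04 in WT and from 7.21 to 7.69 in EKO tumours, and 12 of them were lower by their means in EKO. The 9 dendritic and Langerhans cell markers had means from 5.76 to 5.81 in WT and from 5.50 to 5.59 in EKO tumours. The 9 neutrophil markers had means from 5.90 to 5.97 and from 5.73 to 6.003, and the 8 fibroblast markers from 10.59 to 11.30 and from 10.57 to 11.17. The 10 mast cell markers ranged from 5.93 to 6.44 in WT and from 5.93 to 6.32 in EKO tumours, the 11 lymphoid markers from 6.11 to 6.24 and from 5.97 to 6.10, the 5 eosinophil markers from 3.66 to 3.77 and from 3.64 to 3.95, and the 8 endothelial markers from 6.39 to 7.03 and from 6.42 to 6.64. Fabp5 fell by 6.69 on the log2 scale, with EKO values from 7.98 to 8.30 against WT values from 14.80 to 14.94, so that all 6 arrays matched their labels.

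In the RefSeq gene order of GRCm38.p6, most ligands are neighbours on chromosome 2. Il36b, Il36g, Il36a, Il36rn, Il1f10 and Il1rn follow one another without another protein-coding gene between them, and Il1a lies beside Il1b elsewhere on the same chromosome. On chromosome 1, Il1r2, Il1r1, Il1rl2, Il1rl1, Il18r1 and Il18rap form a second uninterrupted row. RefSeq promoters of 300 bases, from 250 before to 50 after a transcription start, were at hand for 19 of the 21 listed family genes. The motif of AP-1, the transcription factor through which TPA acts on many genes, was searched as TGANTCA, where N is any base. On either strand it stood in 3 of the 27 promoters of these family genes, those of Il1a, Il1rn and Il36b. It stood in 7.81% of all promoters of that length, a share that takes any base at N. The 3 family matches read TGACTCA or TGAGTCA. The κB motif of NF-κB stood in 1 of the 27, the second listed promoter of Il1r1, and in 8.46% of all promoters. The C/EBP motif TTGCNNAA stood in 7 of the 27 promoters and in 10.8% of all promoters. The 3 promoters with the AP-1 motif are shown with that motif in capitals, followed by that of Il1b, the member that varied most among the tumours, which held none of the 3 motifs in this window.
Il1a, GRCm38.p6 chr2:129309923-129310222, minus strand: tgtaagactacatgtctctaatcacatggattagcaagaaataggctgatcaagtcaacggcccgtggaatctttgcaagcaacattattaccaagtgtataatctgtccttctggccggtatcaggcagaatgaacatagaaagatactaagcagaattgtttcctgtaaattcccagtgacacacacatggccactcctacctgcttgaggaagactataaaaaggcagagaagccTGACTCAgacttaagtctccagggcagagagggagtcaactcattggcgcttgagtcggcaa
Il1rn, GRCm38.p6 chr2:24336610-24336909, plus strand: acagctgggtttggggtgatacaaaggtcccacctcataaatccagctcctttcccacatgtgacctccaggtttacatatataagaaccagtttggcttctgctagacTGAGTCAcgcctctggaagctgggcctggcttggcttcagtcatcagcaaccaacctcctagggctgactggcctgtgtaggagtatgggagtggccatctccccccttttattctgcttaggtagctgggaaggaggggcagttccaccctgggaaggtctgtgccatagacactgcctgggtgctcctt
Il36b, GRCm38.p6 chr2:24152922-24153221, plus strand: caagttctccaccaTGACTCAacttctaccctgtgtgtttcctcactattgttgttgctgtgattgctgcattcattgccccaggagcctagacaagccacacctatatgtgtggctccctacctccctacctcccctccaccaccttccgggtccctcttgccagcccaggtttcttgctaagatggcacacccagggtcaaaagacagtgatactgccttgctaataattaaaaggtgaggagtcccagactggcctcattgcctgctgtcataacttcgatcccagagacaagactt
Il1b, GRCm38.p6 chr2:129371090-129371389, minus strand: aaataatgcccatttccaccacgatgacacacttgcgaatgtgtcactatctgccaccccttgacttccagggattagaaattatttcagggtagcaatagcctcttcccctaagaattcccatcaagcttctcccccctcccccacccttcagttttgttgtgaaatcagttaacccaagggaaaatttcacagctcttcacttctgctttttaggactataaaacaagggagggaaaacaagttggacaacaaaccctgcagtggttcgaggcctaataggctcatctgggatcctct

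No member passed the test between EKO and WT tumours. With limma and Benjamini-Hochberg adjustment over all genes, 0 of 9 members passed an adjusted p of 0.05, and 1 of all genes tested, Fabp5, did (0.00550%). The number over all genes was 42 without EKO replicate 2 and 2 without WT replicate 2, with 0 members among them in either case. At an unadjusted p under 0.05 it was 1 of 9, Il36g on the lower side, where 7.13% of all genes were called and 3.70% on the lower side. On the higher side it was 0 members, against 3.44% of all genes. By their means 6 members were lower and 3 higher in EKO, with a median difference of -0.19 on the log2 scale against 0.00 over all genes. The 3 EKO values of every member overlapped the 3 WT values, and 12.0% of all genes had no overlap. With only 9 members, 0 without overlap is near that share. The adjusted p of the members lay between 0.672 and 0.974. In RNA from whole cell mixtures such as these, fewer cells of a type and less RNA per cell cannot be told apart.

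**Figure D1:**
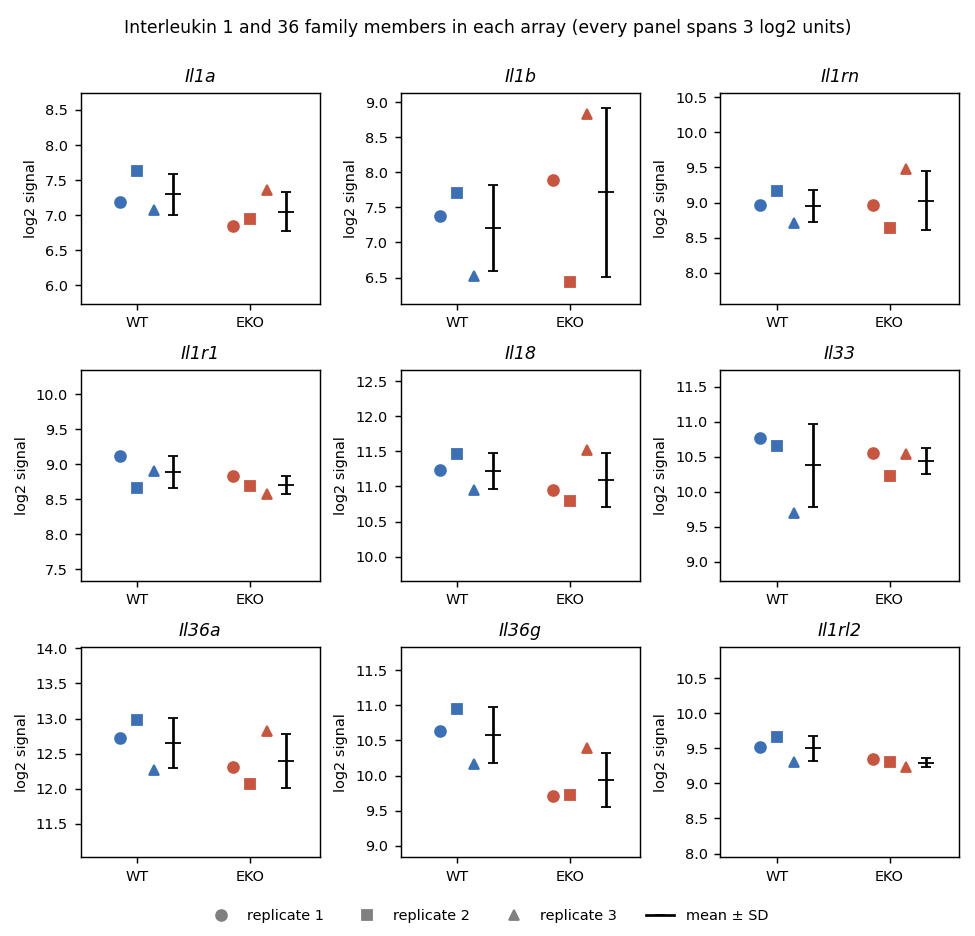
Log2 signal of the 9 measured members in each array, with WT on the left and EKO on the right of each panel, 1 point per mouse, and the mean ± SD (n = 3) as a black bar. Every panel spans the same number of log2 units, so that the wide spread of Il1b, from 6.43 to 8.82, can be set against the narrow one of Il1rl2, from 9.23 to 9.66.

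Il36g, the gene of IL-36γ, an inducible cytokine of the upper epidermis, had the largest difference below 0 among the members. Values of single arrays are given from here on as log2 signals in the order of replicates 1, 2 and 3. Il36g read 10.64, 10.95 and 10.16 in WT, and 9.71, 9.72 and 10.39 in EKO. EKO replicates 1 and 2 lay below every WT tumour, while EKO replicate 3 lay above WT replicate 3, so the groups overlapped. The difference was -0.64 (SE 0.253, 95% interval -1.24 to -0.05, limma adjusted p = 0.672). It ran from -0.87 to -0.46 with 1 array left out at a time.

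Il36a, the gene of IL-36α, had the values 12.72, 12.97 and 12.26 in WT and 12.30, 12.07 and 12.83 in EKO. EKO replicate 3 stood among the higher WT tumours and EKO replicates 1 and 2 near the lowest one. The difference was -0.25 (SE 0.24, 95% interval -0.82 to 0.31, limma adjusted p = 0.852). It ran from -0.47 without EKO replicate 3 to -0.09 without EKO replicate 2 or WT replicate 2.

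The other 2 genes of the IL-36 group, which were not among the members, stood lower by their means as well. Il36b, the gene of IL-36β, read 10.79, 11.09 and 10.40 in WT and 10.32, 10.002 and 10.89 in EKO (difference -0.36, SE 0.256, limma adjusted p = 0.809). Il36rn, the receptor antagonist, read 12.46, 12.69 and 12.18 in WT and 11.76, 12.09 and 12.38 in EKO (difference -0.37, SE 0.19, limma adjusted p = 0.744). The second Il36rn probe set did not share this difference, with means of 8.98 in WT and 9.01 in EKO tumours. None of these genes separated the groups.

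Il1b differed more among tumours of one genotype than between genotypes. It read 7.37, 7.71 and 6.52 in WT, and 7.89, 6.43 and 8.82 in EKO. EKO replicate 3 was the highest and EKO replicate 2 the lowest of all 6 tumours. The SD was 1.21 in EKO and 0.613 in WT tumours, and the difference was 0.51 (SE 0.591, 95% interval -0.88 to 1.91, limma adjusted p = 0.879). Without EKO replicate 3 it was -0.04, and without EKO replicate 2 it was 1.16 (limma adjusted p = 0.474, with 0.474 to 0.998 over the alternatives).

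Il1a, the gene of the keratinocyte alarmin IL-1α, varied far less. Its values were 7.19, 7.63 and 7.07 in WT and 6.85, 6.94 and 7.36 in EKO. EKO replicates 1 and 2 lay below all WT tumours and EKO replicate 3 lay within their range, the same arrangement as for Il36g on a smaller scale. The difference was -0.25 (SE 0.189, 95% interval -0.69 to 0.20, limma adjusted p = 0.819). It ran from -0.40 without EKO replicate 3 to -0.08 without WT replicate 2.

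Il1rn, the IL-1 receptor antagonist, was measured by 3 probe sets that went different ways. The brightest read 8.97, 9.16 and 8.71 in WT and 8.96, 8.64 and 9.47 in EKO, a difference of 0.08 (SE 0.22, 95% interval -0.44 to 0.60, limma adjusted p = 0.952). The others had differences of 0.17 and -0.14. In each of the 3 probe sets EKO replicate 3 was the highest of the 6 tumours, at 9.47, 8.95 and 8.58. The sign of the small difference therefore differed with the probe set.

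Il18, which encodes a cytokine stored as a precursor in epithelium, read 11.23, 11.46 and 10.95 in WT and 10.95, 10.80 and 11.52 in EKO. The highest and the lowest tumour were both EKO, and the difference was -0.13 (SE 0.212, 95% interval -0.63 to 0.38, limma adjusted p = 0.918). Il33, a nuclear cytokine released from damaged barrier cells, read 10.77, 10.66 and 9.70 in WT and 10.55, 10.22 and 10.54 in EKO. Here WT replicate 3 stood apart below the other 5 tumours, and the difference was 0.06 (SE 0.278, 95% interval -0.59 to 0.72, limma adjusted p = 0.974). Without WT replicate 3 the difference of Il33 was -0.28 (limma adjusted p = 0.572, with 0.572 to 0.999 over the alternatives).

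Of the members, both receptors varied least. Il1r1, the signalling receptor of IL-1, read 9.11, 8.66 and 8.90 in WT and 8.83, 8.70 and 8.57 in EKO (difference -0.19, SE 0.135, limma adjusted p = 0.806). Its second probe set lay below the lower quartile of every array and is not read further. Il1rl2, the IL-36 receptor, read 9.52, 9.66 and 9.31 in WT and 9.35, 9.31 and 9.23 in EKO. The EKO tumours lay close together, with an SD of 0.0617, and near the lowest WT tumour, with a difference of -0.20 (SE 0.11, 95% interval -0.46 to 0.06, limma adjusted p = 0.756).

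Of the receptors and decoys that are not members, Il1rap, the coreceptor shared by the IL-1, IL-33 and IL-36 receptors, had the smallest unadjusted p. It read 8.12, 8.23 and 8.02 in WT and 7.59, 8.02 and 7.73 in EKO, a difference of -0.34 (SE 0.129, 95% interval -0.65 to -0.04, limma adjusted p = 0.662). EKO replicate 2 equalled the lowest WT tumour at 2 decimals, and the other EKO tumours lay below all WT tumours. Of its other 4 probe sets, 2 had differences of -0.52 and -0.32, and 2 lay below the lower quartile of every array and are not read further. Il18r1, a chain of the IL-18 receptor, had a difference of -0.42 (SE 0.186, limma adjusted p = 0.704), with EKO values from 5.77 to 6.50 and WT values from 6.47 to 6.74. The decoy receptor Il1r2 (0.10), the second IL-18 receptor chain Il18rap (-0.07), the IL-18 binding protein Il18bp (-0.10) and the inhibitory receptor Sigirr (0.09) had small differences. A dimmer Il18rap probe set read 4.17, 4.46 and 4.13 in WT and 3.56, 3.69 and 3.96 in EKO. It lay below the lower quartile in 3 of the 6 arrays. Its difference was -0.52 (limma adjusted p = 0.592 over all probe sets), so the 2 probe sets of that gene disagreed in size. Il1rapl1 and Il1rapl2, receptors of the nervous system, stayed under the lower quartile of each array and were the only 2 of the 20 measured family genes whose groups did not overlap, 1 higher and 1 lower, against 5.78% and 6.19% of all genes. Over these 20 genes 0 passed, 2 had an unadjusted p under 0.05, both lower in EKO, where 7.13% of all genes were called and 3.70% on the lower side, and the median difference was -0.11.

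**Figure D2:**
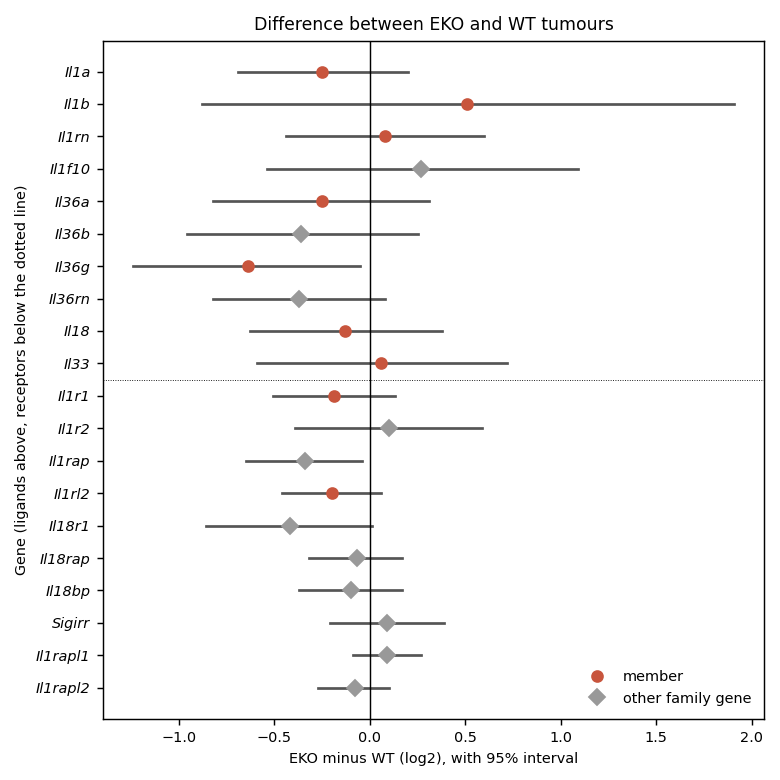
Difference between EKO and WT tumours (EKO minus WT, log2, horizontal axis) of the 20 measured family genes with its 95% interval from limma, ligands and antagonists above the dotted line and receptors, decoys and binding proteins below it. Circles are members and diamonds are other family genes. The intervals of Il36g (-1.24 to -0.05) and Il1rap (-0.65 to -0.04) leave out 0 before adjustment, and that of Il1b (-0.88 to 1.91) is the widest.

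Most ligand genes shared an order of the tumours. In 8 of the 10 ligand and antagonist genes, WT replicate 2 was the highest and WT replicate 3 the lowest WT tumour while EKO replicate 3 was the highest EKO tumour, an order held by 7.76% of all genes and picked after the values were seen. The exceptions were Il33 and Il1f10, the gene of IL-38, which read 5.93, 6.83 and 7.46 in WT and 6.997, 7.10 and 6.95 in EKO (difference 0.27, SE 0.345, limma adjusted p = 0.887). Likeness was measured as the root mean square distance, over the 6 arrays, between log2 values centred on each gene's mean. It was 0.0679 for Il36a and Il36b, neighbouring genes but for Il36g, and 0.0923 for Il36a and Il18, which lies on chromosome 9. For Il1b and Il1f10 it was 1.04. Of the 11 keratinocyte markers only Krt14 had this order, and the mean of the markers had it too, at 12.61, 12.68 and 12.53 in WT and 12.51, 12.75 and 12.76 in EKO. The mean of the 13 macrophage and monocyte markers did not take it in the WT tumours, at 8.04, 7.65 and 8.03 in WT and 7.62, 7.21 and 7.69 in EKO. Their part in the order of the ligand genes was not tested.

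Among 1304 genes outside the family members with a range of at least 1 over the arrays, the nearest to Il1b were Il24, a cytokine of the IL-10 family (distance 0.243), Cd14, the lipopolysaccharide coreceptor of monocytes (0.249), and Serpinb12, an intracellular protease inhibitor (0.312). Cd14 read 7.19, 7.03 and 6.45 in WT and 7.35, 6.38 and 8.31 in EKO, so that it was highest and lowest in the same tumours as Il1b. Cd14 is 1 of the 13 macrophage and monocyte markers. It was the only 1 of them higher by its mean in EKO (0.46), and the other 12 were lower. The nearest genes to Il36g were Lpo, a peroxidase (0.132), the serine protease Prss27 (0.15) and the macrophage elastase Mmp12 (0.156). Those nearest to Il33 were Zfp772 (0.0795), Pcdhb22 (0.121) and Aknad1 (0.143). None of these 9 genes passed between the groups (limma adjusted p from 0.623 to 0.987).

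Agonist and antagonist were also set against each other within each array, to ask whether their difference changed between the genotypes. Il1a minus Il1rn was -1.78, -1.53 and -1.64 in WT and -2.11, -1.70 and -2.11 in EKO, a difference of -0.33 between the groups. EKO replicate 2 lay within the WT range, and the other EKO tumours below it. Il36g minus Il36rn was -1.82, -1.73 and -2.02 in WT and -2.04, -2.37 and -1.995 in EKO, a difference of -0.28. Il1b minus Il1rn ran from -2.21 to -0.65 in EKO and from -2.19 to -1.45 in WT tumours (difference 0.43), Il36a minus Il36rn differed by 0.11 and Il18 minus Il18bp by -0.03. In the exact two-sided permutation test the p of the 5 pairs lay between 0.2 and 1, or between 0.5 and 1 adjusted over the 5 pairs, and 3 against 3 arrays cannot go below 0.10. The groups overlapped in every pair. The level of such a difference depends on the probe sets and has no meaning by itself.

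**Figure D3:**
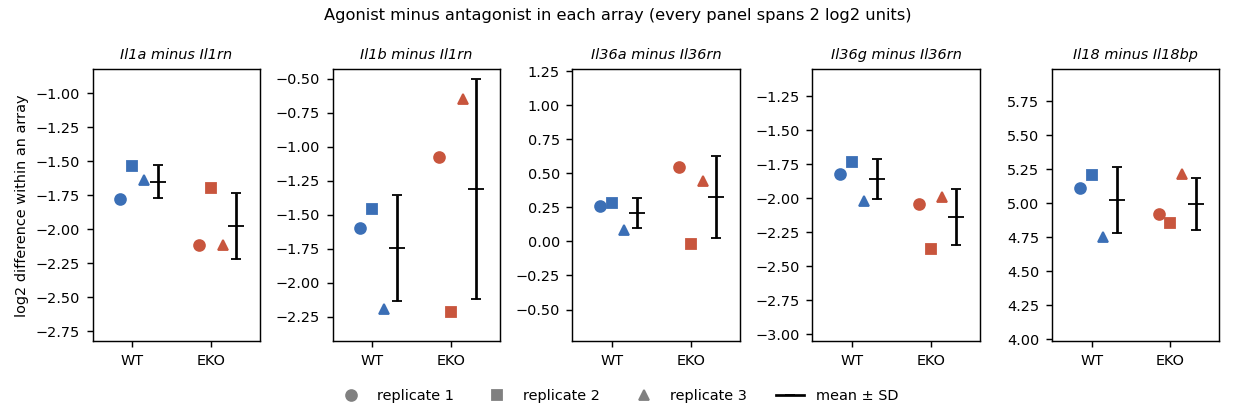
Log2 signal of an agonist minus that of its antagonist or binding protein within each array (vertical axis), 1 point per mouse with the mean ± SD (n = 3), WT left and EKO right in each of the 5 panels. The points of both groups overlap in all panels, and Il1b minus Il1rn spreads widest, from -2.21 to -0.65 in EKO tumours.

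Genes that process the ligands did not pass either, with 0 of 16 measured (2 at an unadjusted p under 0.05, both lower, as were 3.70% of all genes, and a median of -0.08). Casp4, which encodes caspase-11, the sensor of the non-canonical inflammasome, read 8.82, 8.40 and 8.10 in WT and 7.74, 7.87 and 7.76 in EKO. Every EKO tumour lay below every WT tumour, with a difference of -0.65 (SE 0.176, limma adjusted p = 0.621). Casp8 also had no overlap (-0.37, limma adjusted p = 0.667), as had 6.19% of all genes on the lower side, while Gsdma, a pore-forming gasdermin of skin (-0.30), and the protease Ctss (-0.32) overlapped. With a mean over probe sets Gsdma was -0.05. Casp1, which cleaves the precursors of IL-1β and IL-18 and is named here outside the naming rule, read 9.34, 9.11 and 8.80 in WT and 9.58, 8.88 and 9.65 in EKO (difference 0.29, limma adjusted p = 0.825). EKO replicates 1 and 3 stood highest, as they did for Il1b.

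Of 25 measured signalling genes 0 passed, with 4 higher and 1 lower at an unadjusted p under 0.05 (3.44% and 3.70% of all genes) and a median of 0.01. The higher ones named by rule were Tollip, an adaptor that restrains IL-1 receptor signalling (0.28, limma adjusted p = 0.625), the ubiquitin ligase Traf6 (0.38, limma adjusted p = 0.625) and the kinase Irak1 (0.28, limma adjusted p = 0.673). The lower one was Rel, an NF-κB subunit, which read 7.76, 7.72 and 7.03 in WT and 6.78, 6.85 and 6.83 in EKO (difference -0.68, SE 0.195, limma adjusted p = 0.621). With a mean over probe sets Tollip was 0.14 and Traf6 0.21. These 4 genes separated the groups without overlap, as did 12.0% of all genes. The fourth higher gene, the adaptor Tirap (0.53, limma adjusted p = 0.691), is named after its values were seen, and its groups overlapped.

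The target genes of IL-1 and IL-36 varied widely among the tumours, with means on either side of the WT means. Of 30 measured targets 20 had a range of at least 1 on the log2 scale over the 6 arrays, 66.7% against 7.18% of all genes, and 0 passed between the groups. At an unadjusted p under 0.05, 1 was higher and 6 were lower, where 3.44% and 3.70% of all genes were, and the median difference was -0.01. Defb4, a β-defensin, read 8.34, 8.56 and 8.94 in WT and 11.56, 9.48 and 11.66 in EKO, so that even the lowest EKO tumour exceeded the WT range (difference 2.29, SE 0.555, limma adjusted p = 0.616). Without EKO replicate 2 it passed (3.00, limma adjusted p = 0.00558, with up to 0.998 over the alternatives).

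On the lower side stood Ccl20, a chemokine for dendritic cells and T cells (-0.60, limma adjusted p = 0.625), the endothelial adhesion molecule Sele (-0.60, limma adjusted p = 0.63) and the iron-sequestering protein Lcn2 (-0.77, limma adjusted p = 0.662). Ccl20 read 7.72, 7.72 and 7.45 in WT and 6.60, 7.38 and 7.11 in EKO, with no overlap. Cxcl2, a neutrophil chemokine, and Ptgs2, which encodes cyclooxygenase-2, are named after their values were seen. Both were arranged as Il1b was in the EKO tumours. Cxcl2 read 6.15, 5.96 and 4.86 in WT and 7.57, 5.10 and 9.44 in EKO (difference 1.71, SE 0.994, limma adjusted p = 0.762). Ptgs2 read 4.92, 6.32 and 4.18 in WT and 6.75, 5.44 and 8.02 in EKO (difference 1.60, SE 0.733, limma adjusted p = 0.707). EKO replicates 1 and 3 lay above all WT tumours for both genes, and EKO replicate 2 lay within the WT range. Mmp13 and Cxcl3, also named after their values were seen, had wider ranges than Ptgs2 (4.36 and 4.06 against 3.84). In these other genes EKO replicate 3 exceeded the WT range, while EKO replicate 1 lay within it. The mean of the 9 neutrophil markers was 5.97, 5.91 and 5.90 in WT and 5.95, 5.73 and 6.003 in EKO. Of these markers Csf3r and Fpr2 are named after their values were seen. Csf3r read 5.34, 5.38 and 5.49 in WT and 5.77, 5.45 and 5.87 in EKO. Fpr2 read 5.57, 5.59 and 5.52 in WT and 6.21, 5.41 and 5.91 in EKO. Both thus exceeded the WT range in EKO replicates 1 and 3. By their means in EKO, however, 6 of the 9 markers were lower and 3 higher (median -0.03, with Mmp8 at -0.69). The part of the neutrophil markers was not tested.

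**Figure D4:**
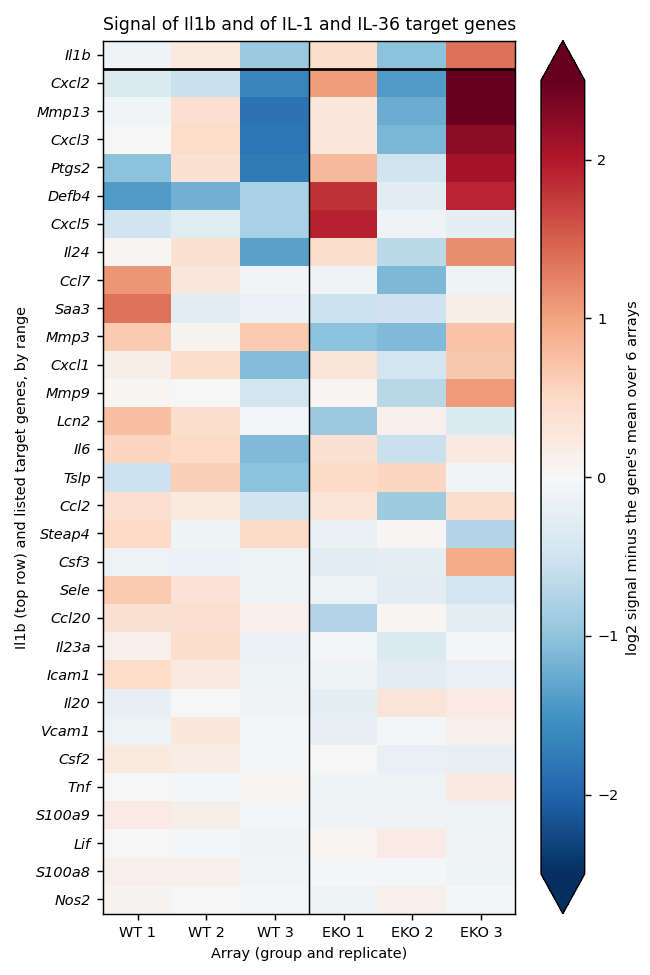
Log2 signal of Il1b (top row) and the 30 measured IL-1 and IL-36 target genes in each array, as the difference from the gene's mean over the 6 arrays (colour, with the ends of the bar standing for all values beyond it), and targets ordered by their range. In the rows of Cxcl2 (9.44), Mmp13 (9.76), Cxcl3 (7.54) and Ptgs2 (8.02), EKO replicate 3 is the deepest red. EKO replicate 2 and WT replicate 3 are pale or blue in the same rows. The lower rows, such as Nos2 and Tnf, vary little.

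Genes known to respond to IL-33 through type 2 immune cells had a median difference of -0.11 over the 12 measured, against 0.00 over all genes. Of the 12, 0 passed the threshold and 2 had an unadjusted p under 0.05, both lower, as were 3.70% of all genes. These were the chemokines Ccl17 and Ccl11. Ccl17 read 7.35, 7.33 and 6.84 in WT and 6.47, 6.21 and 6.44 in EKO (difference -0.80, SE 0.157, limma adjusted p = 0.546). Ccl11, which draws eosinophils, read 6.86, 7.56 and 6.41 in WT and 5.90, 5.26 and 5.45 in EKO (difference -1.40, SE 0.297, limma adjusted p = 0.546). Every EKO tumour was below every WT tumour in both, as for 6.19% of all genes, while Ccl22 (-0.48) and Ccl24 (-0.28) overlapped. Il33 itself had a difference of 0.06. By their means in EKO, 12 of 13 macrophage and monocyte markers were lower (median -0.47, with Mrc1 at -1.04). So were 8 of 9 dendritic and Langerhans cell markers (median -0.16). Lower means were not particular to these lists. They were found in 9 of 11 lymphoid (median -0.16), 6 of 8 fibroblast (-0.15) and 5 of 8 endothelial markers (-0.18). Of the keratinocyte markers 8 of 11 were higher (median 0.04), as were 3 of 5 eosinophil markers (0.08). The part of these cell markers was not tested. Arg1, the arginase of alternatively activated macrophages and named after its values were seen, read 11.46, 12.41 and 11.29 in WT and 12.35, 11.40 and 12.83 in EKO, highest in the same tumour as Il1b (difference 0.47, limma adjusted p = 0.839). Among 10 genes downstream of IL-18, 0 passed and 0 had an unadjusted p under 0.05, with a median of -0.06. Of these genes 3 lay below the lower quartile of every array, and Fasl lay below it in 5 of the 6 arrays. The cytotoxic granule genes Gzma (-0.30) and Gzmb (-0.29), the chemokine Cxcl10 (-0.23) and Fasl (0.11) had the smallest p of that list.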

How the data were processed

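Log2 values of 45101 probe sets in 6 arrays, 3 WT and 3 EKO mice by the sample titles, were used as the authors deposited them. The submitters' processing notes name RMA and, in version 6.6, Partek. The RMA method corrects background, normalizes quantiles between arrays and narrows differences near the floor. Array medians lay between 5.41 and 5.43, and pairs of arrays correlated with r from 0.988 to 0.994. No detection calls, scan dates or slide batches were at hand, and 3 arrays per group limit the precision.

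The platform annotation gave 34945 probe sets with 1 symbol, 932 with several and 9160 unnamed here. Of those with 1 symbol, 34741 matched RefSeq by Entrez identifier and 0 symbols changed. Il36 genes were matched through RefSeq synonyms. Each of 18193 genes was read from its probe set with the highest mean. The genotypes were compared in R 4.3.3 with limma 3.58.1 (lmFit and eBayes, two-sided), and p was adjusted over all genes by Benjamini and Hochberg's method with 0.05 as the threshold. Differences are EKO minus WT in log2 units. No filter was set. The procedure was tested on simulated data. Within-array pairs were compared by exact permutation (scipy 1.17.1), adjusted over 5 pairs.

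The members and all gene lists were chosen with earlier results of these data known. Named genes were the family, up to 4 genes by smallest unadjusted p of each other list, Fabp5, and the 3 genes nearest to each of the 3 members with the largest range. Pathway genes outside this rule are named as such, apart from Nos2 and Tnf in a figure caption. Single genes of the cell marker lists, such as Mrc1, Mmp8 and Krt14, are also outside it. Alternatives were a replicate block, array weights, only the genes above the median of means (upper 50%), centred medians, quantile normalization run again, robust variances with an intensity trend, probe sets averaged per gene, all probe sets, a threshold of 0.1 and each array left out. Promoters are RefSeq's, GRCm38.p6, and no array build is given in the sources used here.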

Additional observations from a re-analysis of the deposited data

How the results depend on the processing

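Of the family members 0 passed under each of 15 alternatives, the replicate block included, with a smallest adjusted p of 0.353 (limma, Il36g). With all probe sets tested, 2 probe sets passed the threshold, a count of probe sets and not of genes. The number of genes past the threshold ran from 1 to 42 with 1 array left out, 42 without EKO replicate 2. Pathway genes past it ran from 0 to 1 with 1 array left out (Defb4, 3.00, limma adjusted p = 0.00558). Of 50 named genes 39 kept their direction throughout, as did 5 of the 9 members. With array weights Il1rn was -0.0049, Il33 -0.05 and Zfp772 -0.09, and with a mean over probe sets Il1rapl2 was 0.03 and Il36a minus Il36rn -0.08. With 1 array left out, the differences ran from -0.04 to 1.16 for Il1b, -0.14 to 0.27 for Il1rn, -0.13 to 0.64 for Il1f10, -0.34 to 0.02 for Il18, -0.28 to 0.26 for Il33 and -0.05 to 0.32 for Il1r2. They ran from -0.01 to 0.19 for Fasl, -0.03 to 0.94 for Cd14, -0.30 to 0.24 for Zfp772, -0.04 to 0.43 for Pcdhb22 and -0.16 to 0.06 for Il18 minus Il18bp. Il1a minus Il1rn ran from -0.46 to -0.26, Il1b minus Il1rn from 0.10 to 0.88, Il36a minus Il36rn from 0.0011 to 0.29 and Il36g minus Il36rn from -0.36 to -0.16. The causes were not tested. The labels number the biological replicates and state no pairing. Deviations of same-numbered arrays correlated at -0.074, -0.089 and -0.34, and those of differently numbered arrays at -0.19 to 0.263. Centred within groups of 3 arrays, such deviations depend on one another and cannot decide whether the numbers pair arrays. The replicate block gave 1 gene past the threshold and changed no call among the named genes. At 3 arrays a group sizeable differences can go uncalled, as the interval of Il1b, from -0.88 to 1.91, shows.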
